A study of Mus musculus with 10 samples.

Results

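The methyltransferase-like (METTL) genes outside the core complex that writes N6-methyladenosine (m6A) were followed in mouse tracheal epithelial organoids with and without a Mettl3 knockout. The 9 genes are Mettl1, Mettl4, Mettl5, Mettl7a1, Mettl7b, Mettl8, Mettl9, Mettl16 and Mettl17. They were picked by symbol from 22457 genes in the deposited count table, and all 9 had enough counts to enter the fit over 13528 genes. The group was put together because Mettl7b stood far higher in knockout organoids, so the difference between the genotypes is given for all 9 members as a description, with no p-value. Where members called by the fit over all genes are counted, the count stands beside the share of all genes called and supports nothing.

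METTL proteins share a fold that binds S-adenosylmethionine (SAM), the methyl donor of the cell, and pass its methyl group to very different substrates. Mettl1 methylates guanosine in transfer RNA (tRNA), and Mettl8 methylates cytidine in mitochondrial tRNA. Mettl4, Mettl5 and Mettl16 methylate adenosine in small nuclear or ribosomal RNA, Mettl9 methylates histidine in proteins, and Mettl17 is needed to assemble the small subunit of the mitochondrial ribosome. Mettl7a1 and Mettl7b belong to a pair of membrane-bound enzymes of the endoplasmic reticulum and lipid droplets, whose human counterparts methylate small thiols.

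Both genotypes were studied as organoids, cultures grown in Matrigel from tracheal basal cells, and RNA was taken on day 14. Control mice are labelled Ctrl and mutant mice M3-CKO, with 3 RNA-seq libraries each. The culture protocol given for both groups lists insulin, transferrin, cholera toxin, epidermal growth factor, pituitary extract, retinoic acid, the TGF-beta and BMP receptor inhibitors A83-01 and DMH-1, and serum, with the ROCK inhibitor Y-27632 at the start. It also describes a differentiation medium without serum or these inhibitors, and does not say which medium the sequenced organoids had last. The sources used here do not give the strain, age and sex of the mice, the deleted part of Mettl3, the driver of the deletion or any pooling of animals. The series text speaks of isolated basal cells, whereas the extraction protocol describes whole epithelial sheets and names no sorting step. The other 4 libraries of the series, m6A immunoprecipitation and its input, were not analysed here.

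Total counts were between 8906375 and 10485922 per library, and levels are given as CPM, the count scaled to a common library size by TMM. Mettl3 stood at 14.96, 17.0 and 18.9 CPM in Ctrl and at 11.1, 10.3 and 9.87 CPM in M3-CKO (log2 fold change -0.70, SE 0.21, edgeR adjusted p = 0.12). Since the deleted part is not known, this count over the gene is a limited check of the labels. M3-CKO replicate 3 stood apart, with a Pearson r across genes of 0.908 to 0.919 with the other M3-CKO libraries, which reached 0.985 with each other. With the Ctrl libraries its r was 0.919 to 0.925, so it was no closer to its own group than to Ctrl. The epithelial markers Epcam, Krt8, Krt18 and Cdh1 summed to 2057 to 2594 CPM in Ctrl and 1865 to 2965 CPM in M3-CKO. The basal markers Krt5, Krt14, Krt15, Trp63 and Ngfr summed to 1765 to 2179 CPM in Ctrl and to 506.6 to 873.9 CPM in M3-CKO. All 5 basal markers had a lower mean in M3-CKO, but not all were called. Krt5, Krt14 and Krt15 were called lower (edgeR adjusted p = 0.024, 0.037 and 0.0083). Trp63 and Ngfr had log2 fold changes of -0.81 (SE 0.28) and -0.75 (SE 0.33). They were not called (edgeR adjusted p = 0.16 and 0.26), and their groups overlapped. In bulk RNA, fewer cells of a type and less RNA per cell cannot be told apart.

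The promoters of 3 members, those whose Ctrl and M3-CKO libraries did not overlap, are shown as the 250 bases before the annotated start, from RefSeq on GRCm38.p6, whereas the counts were made on mm39. Capitals mark CpG, the dinucleotide at which mammalian DNA is methylated. The windows are chr10:128960989-128961238 on the minus strand for Mettl7b, chr15:100304567-100304816 on the plus strand for Mettl7a1 and chr11:74770613-74770862 on the plus strand for Mettl16.
Mettl7b: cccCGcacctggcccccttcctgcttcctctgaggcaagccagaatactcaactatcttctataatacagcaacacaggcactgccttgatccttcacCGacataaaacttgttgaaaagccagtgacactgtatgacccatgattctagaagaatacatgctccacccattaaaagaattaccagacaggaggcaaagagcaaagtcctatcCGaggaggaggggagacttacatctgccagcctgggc
Mettl7a1: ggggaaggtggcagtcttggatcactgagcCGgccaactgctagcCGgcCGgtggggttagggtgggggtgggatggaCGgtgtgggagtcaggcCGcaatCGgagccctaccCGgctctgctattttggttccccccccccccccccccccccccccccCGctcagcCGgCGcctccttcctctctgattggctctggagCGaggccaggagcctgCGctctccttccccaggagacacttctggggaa
Mettl16: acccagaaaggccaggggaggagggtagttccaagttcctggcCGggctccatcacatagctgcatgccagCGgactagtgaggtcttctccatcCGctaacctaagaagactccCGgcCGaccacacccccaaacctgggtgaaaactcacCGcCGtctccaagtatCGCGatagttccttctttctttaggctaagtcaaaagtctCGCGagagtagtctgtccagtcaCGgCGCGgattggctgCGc

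The Mettl7b window held 3 CpG and 49.2% G and C. The Mettl7a1 window held 12 CpG and the Mettl16 window 15, against a median of 6 over 32841 promoter windows of the same length. As a ratio of observed to expected, CpG stood at 0.21 for Mettl7b, at percentile 30.7 of all windows. The other 8 members had ratios from 0.41 for Mettl7a1 to 1.22 for Mettl4, all above the median of 0.37. The sequence TATAAA, searched on both strands, occurred in none of the 9 windows and in 12.4% of all windows. The CRE sequence TGACGTCA, its own reverse complement, occurred once, in the window of Mettl4, and in 1.55% of all windows. CCAAT occurred in the windows of Mettl7a1, Mettl16 and Mettl17, and in 33.9% of all windows. GGGCGG occurred in those of Mettl4 and Mettl8, and in 32.7% of all windows. TGACTCA occurred in no member window and in 4.46% of all windows. These matches describe letters in a window and do not show binding.

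**Figure D1:**
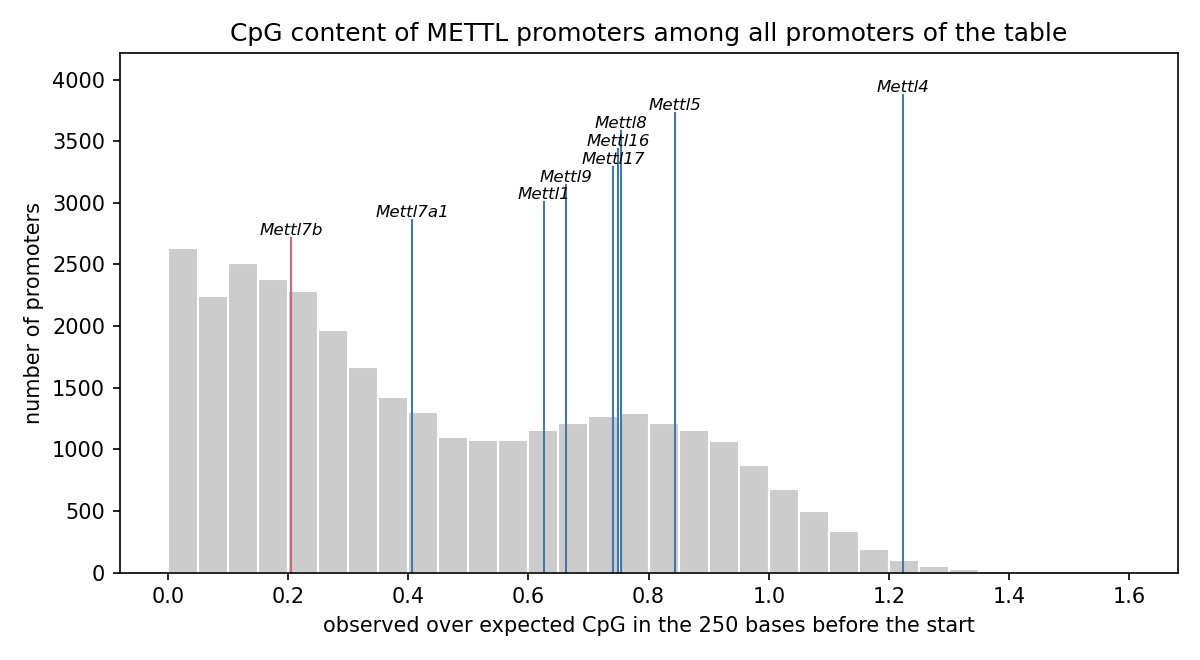
Histogram of the observed over expected CpG ratio (x axis) in the 250 bases before the start, counted over 32841 promoter windows (y axis, number of promoters), with a line for each METTL gene. Mettl7b, in red, lies at 0.21 and the other 8 genes lie between 0.41 and 1.22.

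Mettl7b RNA was almost absent from Ctrl organoids and low but present in every M3-CKO library. In replicate order, 2, 0 and 2 reads were counted for Ctrl and 27, 20 and 35 for M3-CKO. This corresponds to 0.218, 0 and 0.225 CPM in Ctrl and to 2.61, 2.28 and 3.56 CPM in M3-CKO. The groups lay well apart, with the lowest M3-CKO library above every Ctrl library. The log2 fold change was 4.15 (SE 0.72), the 33rd highest of 13528 genes. Summed over libraries the ratio was 19.5, with an exact 95% interval of 7.33 to 73.2. The interval is wide because the Ctrl side rests on 4 counts. It covers counting error only, not the spread between libraries or the choice of the set by this rise, and is no test. The fitted value ran from 3.59 without Ctrl replicate 2, the library with no Mettl7b count, to 4.54 without Ctrl replicate 3.

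Mettl7b shares 10 bases of its annotated span with Itga7, which encodes an integrin subunit that binds laminin. Itga7 was chosen after its values were seen. Its counts were 31, 36 and 18 in Ctrl and 188, 124 and 109 in M3-CKO, or 3.38, 3.81 and 2.02 CPM against 18.2, 14.2 and 11.1 CPM. Itga7 rose, with a log2 fold change of 2.23 (SE 0.34, edgeR adjusted p = 0.029). That call was lost when any library other than M3-CKO replicate 3 was left out (adjusted p 0.092 to 0.14), and with M3-CKO replicate 3 left out the adjusted p was 0.0017. Among the M3-CKO libraries the order differed: Mettl7b was highest in replicate 3, where Itga7 was lowest. There were 0.144, 0.161 and 0.321 Mettl7b counts per Itga7 count in M3-CKO and 0.0645, 0 and 0.111 in Ctrl. The sources used here do not give the strand setting of the counting, and whether Itga7 transcripts add to the Mettl7b count was not tested. The neighbouring genes Rdh5 and Bloc1s1 (also chosen after their values were seen), were not called, with log2 fold changes of -0.18 (SE 0.43) and -0.03 (SE 0.58) and edgeR adjusted p of 0.86 and 0.99.

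Macrophages are another cell type in which METTL7B has been described, so immune markers are given beside the Mettl7b values. Rows were held by 8 of 13 immune markers, and their sum was 1035 to 1857 CPM in Ctrl and 1197 to 1637 CPM in M3-CKO. Most of this sum came from Cd14, Lyz2 and Cd68. Cd14 stood at 499.2, 437.8 and 423.7 CPM in Ctrl and 843.4, 997.7 and 683.2 CPM in M3-CKO, with groups that did not overlap (log2 fold change 0.89, SE 0.19, edgeR adjusted p = 0.052). Lyz2 had a log2 fold change of -0.77 (SE 0.41, edgeR adjusted p = 0.34) with overlapping groups. Groups overlapped as well for Cd68 (log2 fold change -0.02, SE 0.33, edgeR adjusted p = 0.99) and Itgam (-1.32, SE 0.73, edgeR adjusted p = 0.36). Fcer1g was at 0.218 to 0.317 CPM in Ctrl and 0.290 to 1.02 CPM in M3-CKO. Csf1r, the receptor for the macrophage growth factor, was at 0.218 to 0.740 CPM in Ctrl and 0.610 to 3.19 CPM in M3-CKO. The defining leukocyte gene Ptprc was at 0 CPM in all M3-CKO libraries and at most 0.211 CPM in Ctrl. Mrc1, a macrophage receptor, was at 0 CPM in Ctrl and reached at most 0.203 CPM in any library. The part of these markers' RNA in the Mettl7b values was not tested.

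The genes whose profile over the 6 libraries lay closest to that of Mettl7b, among 10478 named genes with a mean of at least 5 CPM, were Prr15, Timm8a1, Phospho2, Fkbpl and Neu1. Pearson r of log2 CPM with Mettl7b was 0.998 for Prr15, 0.995 for Timm8a1, 0.993 for Phospho2, and 0.992 for both Fkbpl and Neu1. Neu1, the lysosomal sialidase, stood at 158.9, 105.5 and 131.3 CPM in Ctrl and 323.8, 291.0 and 355.1 CPM in M3-CKO. Phospho2, a phosphatase gene in the neighbourhood of Mettl5, stood at 49.3 ± 4.43 and 93.2 ± 8.31 CPM (SD, n = 3). All 5 were highest in M3-CKO replicate 3, as Mettl7b was, which the choice by r favours. Within Ctrl the Mettl7b profile rests on 2, 0 and 2 reads. An r above 0.95 was reached by 136 of the 10478 genes. A gene that is steadily higher in M3-CKO tends to score high, so the likeness is a description of 6 points.

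Mettl7a1, the paralogue of Mettl7b, went the other way in M3-CKO replicates 1 and 2. It stood at 573.1, 680.7 and 598.0 CPM in Ctrl and at 206.7, 186.1 and 548.5 CPM in M3-CKO. Replicate 3 thus lay just below the lowest Ctrl library, while replicates 1 and 2 lay far below all of them. The mean was 50.8% of that in Ctrl, and the log2 fold change of -0.98 (SE 0.40) became -1.66 without M3-CKO replicate 3. Of reads assigned to the 3 neighbouring copies Mettl7a1, Mettl7a2 and Mettl7a3, at least 99.9% were counted for Mettl7a1 in every library. The sources used here do not say how reads that match several copies were counted, so this split is uncertain.

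The summed club cell markers Scgb1a1, Scgb3a1, Scgb3a2 and Cyp2f2 were highest in the same library, though the 4 genes did not move alike. All 4 had a row, and their sum was 2760 to 3096 CPM in Ctrl, and 1646, 1185 and 4379 CPM in M3-CKO by replicate. Cyp2f2, a cytochrome P450 of club cells and the most abundant of the 4 in every library, ran from 2520 to 2794 CPM in Ctrl, against 1418, 1068 and 2793 CPM in the 3 M3-CKO libraries. Scgb1a1, the club cell secretoglobin, lay higher in every M3-CKO library, with 5.57, 4.33 and 2.81 CPM in Ctrl and 83.2, 37.5 and 358.5 CPM in M3-CKO (log2 fold change 5.23, SE 0.89, edgeR adjusted p = 0.033). The ciliated markers Foxj1, Dnah5, Tekt1, Ccdc39 and Dnaic1 summed to 16.2, 16.5 and 46.4 CPM in Ctrl and to 84.7, 66.9 and 38.2 CPM in M3-CKO, overlapping through replicate 3 of each group. Most of this sum came from Foxj1, the regulator of ciliated cells, with a log2 value of 1.53 (SE 0.55, edgeR adjusted p = 0.17). The other ciliated markers did not share that rise. Ccdc39 had a log2 value of 0.44 (SE 0.38) and Dnah5 one of -0.15 (SE 0.57), with edgeR adjusted p of 0.57 and 0.91. Tekt1 and Dnaic1, with 28 and 11 counts in all, had too few to test. The part of club and ciliated cell RNA in the Mettl7a1 values was not tested.

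**Figure D2:**
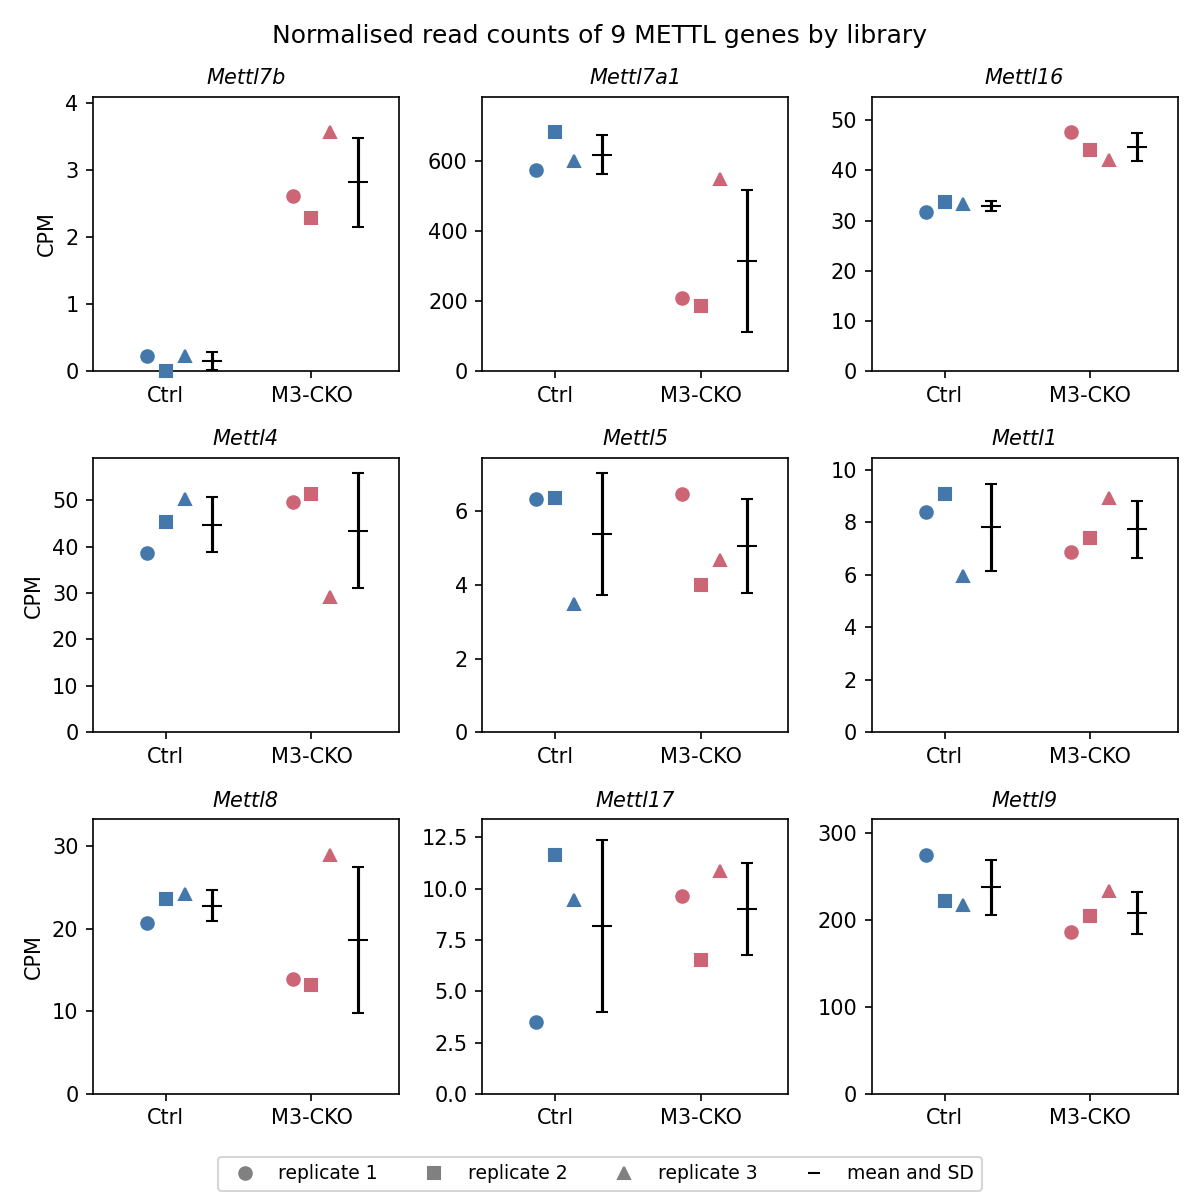
CPM (y axis, linear, starting at 0, own scale for each gene) of the 9 METTL genes in Ctrl (blue) and M3-CKO (red) libraries, with symbols for replicates and a bar for mean and SD (n = 3). Mettl7b, Mettl7a1 and Mettl16 have groups that do not overlap, and M3-CKO replicate 3 lies away from replicates 1 and 2 for Mettl7a1, Mettl8 and Mettl4.

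Mettl16 had the smallest coefficient of variation of the 9 members in both groups, 2.97% in Ctrl and 6.22% in M3-CKO. Counting error alone gives 5.76% and 4.81% for Mettl16, so its Ctrl libraries lay closer together than counting predicts. This enzyme methylates U6 small nuclear RNA and hairpins in the mRNA of Mat2a, which encodes the SAM synthetase subunit of most tissues, and is known to tie Mat2a mRNA levels to the supply of SAM. Mettl16 stood at 31.8, 33.6 and 33.2 CPM in Ctrl and at 47.6, 44.2 and 42.1 CPM in M3-CKO. Each M3-CKO library lay above each Ctrl library, and the mean was 135.7% of Ctrl (log2 fold change 0.44, SE 0.15). Leaving out single libraries moved the log2 value only between 0.39 and 0.48.

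Mat2a lay in the opposite direction, at 309.4, 320.2 and 286.4 CPM in Ctrl and 221.2, 205.6 and 257.9 CPM in M3-CKO. Again the groups did not overlap, but the difference (log2 fold change -0.42, SE 0.15) missed the threshold (edgeR adjusted p = 0.17). It passed without M3-CKO replicate 3 (log2 fold change -0.52, adjusted p = 0.015), a fit that called 25.0% of all genes.

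**Figure D3:**
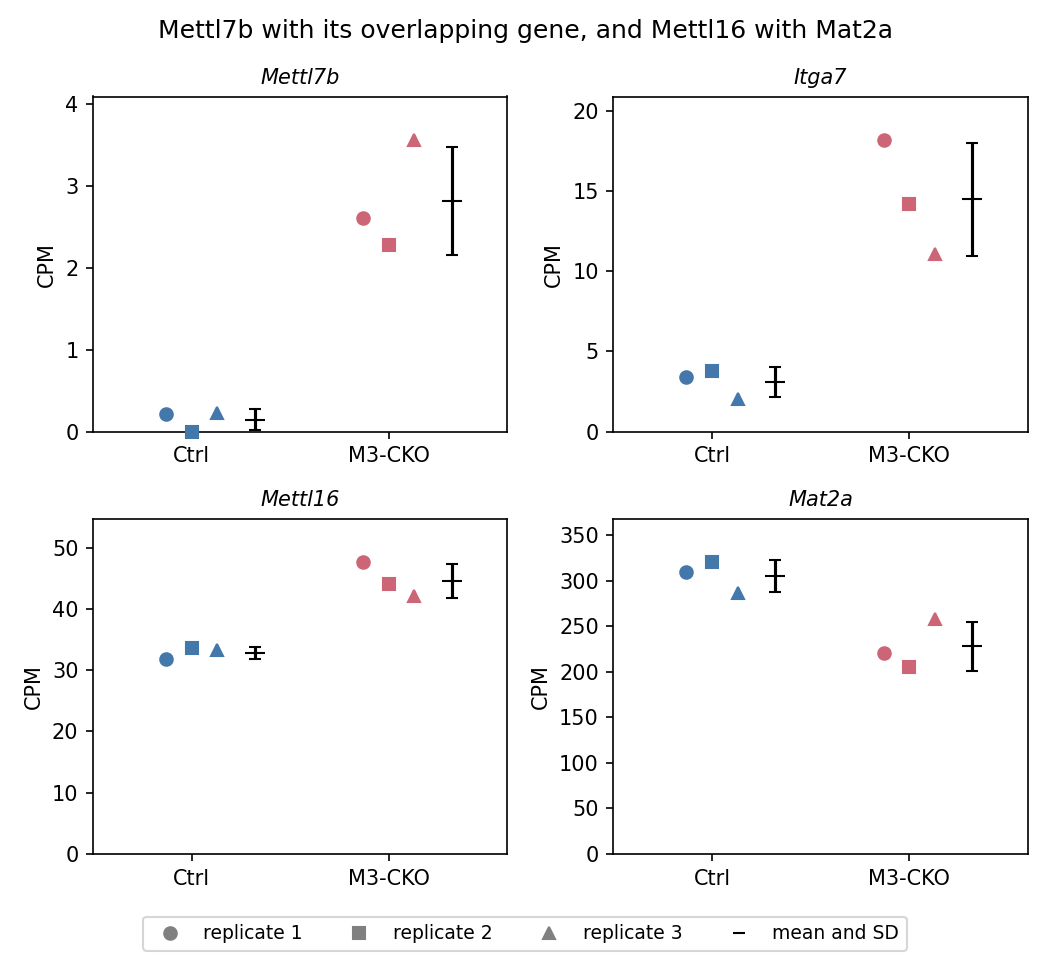
CPM (y axis, linear from 0) by library for Mettl7b and the overlapping gene Itga7 (top) and for Mettl16 and its target Mat2a (bottom), with mean and SD (n = 3). Mettl7b and Itga7 are both higher in M3-CKO but differ in the order of its replicates. Between the groups, Mettl16 is higher and Mat2a lower in M3-CKO, but within neither group are their replicate orders reversed.

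Mettl4 and Mettl5, the other adenosine methyltransferases, differed little on average. Mettl4, which acts on U2 small nuclear RNA, stood at 38.7, 45.3 and 50.3 CPM in Ctrl and at 49.6, 51.3 and 29.1 CPM in M3-CKO (log2 fold change -0.05, SE 0.24). M3-CKO replicate 3 was the lowest of all 6 libraries, and without it the log2 value was 0.17. Mettl5, which methylates 18S ribosomal RNA, stood at 6.33, 6.34 and 3.48 CPM in Ctrl and at 6.47, 3.99 and 4.68 CPM in M3-CKO (log2 fold change -0.09, SE 0.37). The groups of both genes overlapped. Trmt112, the partner that stabilises Mettl5, stood at 4.68 ± 1.27 and 6.10 ± 0.841 CPM (SD, n = 3; log2 fold change 0.38, SE 0.33, edgeR adjusted p = 0.56).

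The tRNA enzymes Mettl1 and Mettl8 had overlapping groups as well. Mettl1 stood at 8.41, 9.09 and 5.95 CPM in Ctrl and at 6.86, 7.42 and 8.95 CPM in M3-CKO (log2 fold change -0.01, SE 0.28). Wdr4, which forms the tRNA guanosine methyltransferase with Mettl1, stood at 30.3 ± 4.77 and 33.5 ± 2.82 CPM (SD, n = 3; log2 fold change 0.15, SE 0.19, edgeR adjusted p = 0.72). Mettl8 split the M3-CKO group: it stood at 20.6, 23.6 and 24.1 CPM in Ctrl, at 13.9 and 13.2 CPM in M3-CKO replicates 1 and 2, and at 28.9 CPM, the highest of all libraries, in replicate 3. Its log2 fold change of -0.29 (SE 0.33) was -0.75 without M3-CKO replicate 3. The club cell markers given above for Mettl7a1 were high in that library too, and their part in the Mettl8 values was not tested.

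Mettl17 and Mettl9 complete the group. Mettl17 stood at 3.49, 11.6 and 9.43 CPM in Ctrl and at 9.66, 6.50 and 10.9 CPM in M3-CKO (log2 fold change 0.14, SE 0.45). Its Ctrl libraries had a coefficient of variation of 51.4%, where counting error alone gives 11.5%, and the log2 value ran from -0.22 to 0.48 when single libraries were left out. Mettl9 stood at 274.4, 221.5 and 216.8 CPM in Ctrl and at 185.7, 204.6 and 233.1 CPM in M3-CKO (log2 fold change -0.19, SE 0.17), with overlapping groups.

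The annotated span of Mettl9 holds the whole of Igsf6, an immunoglobulin superfamily gene on the other strand (chosen after its values were seen). Igsf6 stood at 13.8, 19.7 and 21.7 CPM in Ctrl and at 2.80, 4.79 and 8.14 CPM in M3-CKO, with groups that did not overlap. The difference (log2 fold change -1.81, SE 0.41) missed the threshold, with an edgeR adjusted p = 0.062. It passed with DESeq2 (adjusted p = 0.00077), with edgeR when all genes were kept (adjusted p = 0.021) and without M3-CKO replicate 3 (adjusted p = 0.0025). Without the strand setting, how reads of the 2 genes were parted is not known.

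Within the 9 genes, Mettl7a1 and Mettl8 had the most similar profiles, with a Pearson r of 0.92 over 6 libraries, followed by Mettl7b and Mettl16 with 0.91. Mettl7a1 and Mettl16 had the most opposed, with -0.83. The first pair shared the high level in M3-CKO replicate 3, which lay above the mean of M3-CKO replicates 1 and 2 by 1.48 (Mettl7a1) and 1.08 (Mettl8) on the log2 scale. These gaps were at percentiles 90.1 and 80.4 of their size over all tested genes. For Mettl7b the gap was 0.51, at percentile 48.8, and for Mettl16 it was -0.12, at percentile 13.2.

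Of the 9 members, 1 was called at an adjusted p under 0.05 by edgeR, namely Mettl7b, where 2.91% of all tested genes were called (1.74% higher, 1.16% lower). Since Mettl7b chose the set, nothing is read from this count or from the others below. The groups did not overlap for 3 of the 9 members, against 27.1% of all tested genes. For 7 members the log2 fold change was under 0.5 in size, and over all tested genes the median size was 0.31. Without M3-CKO replicate 3, 4 members were called, Mettl7b and Mettl16 higher and Mettl7a1 and Mettl8 lower, beside 25.0% of all genes in that fit.

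**Figure D4:**
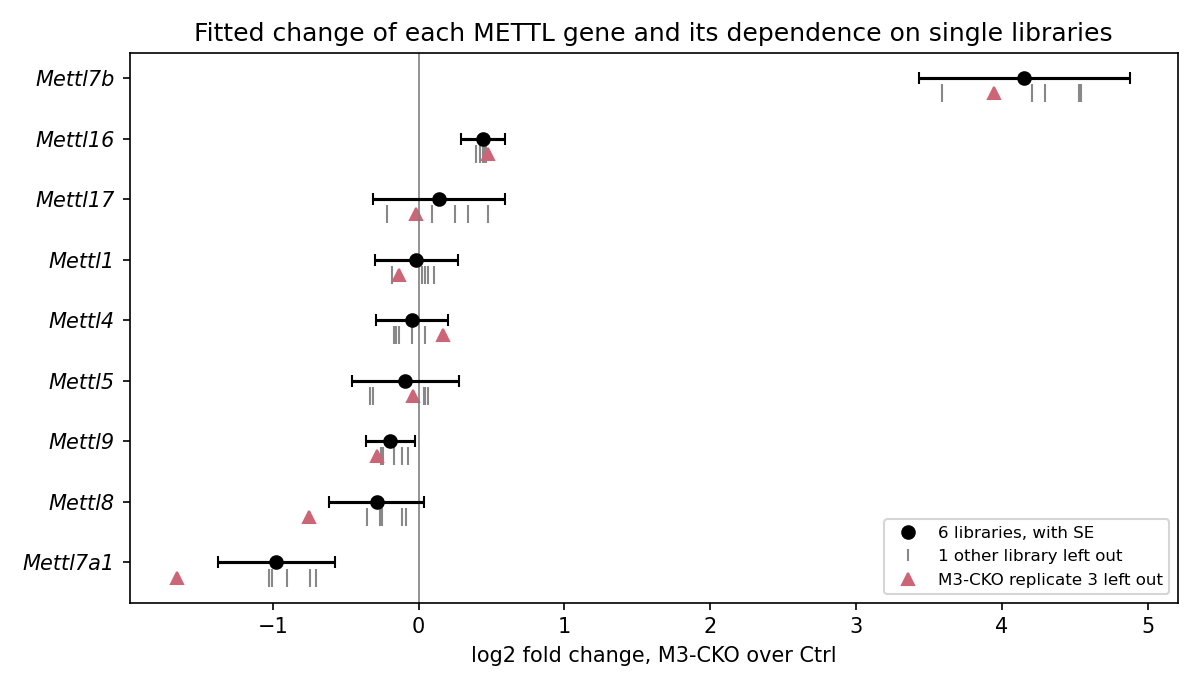
Log2 fold change of M3-CKO over Ctrl (x axis) for each METTL gene, with the fit of 6 libraries and its SE (black) and the fits that leave out 1 library (gray bars, or a red triangle for M3-CKO replicate 3). Mettl7b stays between 3.59 and 4.54 and Mettl16 between 0.39 and 0.48, while Mettl7a1 and Mettl8 move to -1.66 and -0.75 without M3-CKO replicate 3.

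Genes that work with these enzymes were described through 10 lists. Over the lists 110 different genes were tested, and edgeR called 2 of them (1.82%, against 2.91% of all tested genes). An unadjusted p under 0.05 was held by 14 of the 110 (12.7%), against 20.5% of all tested genes, and DESeq2 called 4 of the 124 with a row, where it called 5.34% of all genes in the table. Both genes called by edgeR came from the list of SAM synthesis and turnover, Ahcyl2 by its likeness to an enzyme of that pathway. Amd1, which turns SAM into the donor for polyamine synthesis, rose from 145.9 ± 5.28 to 259.3 ± 34.6 CPM (SD, n = 3; log2 fold change 0.83, SE 0.15, edgeR adjusted p = 0.038). Ahcyl2, a relative of the enzyme that clears S-adenosylhomocysteine, fell, with 295.1 ± 22.3 CPM in Ctrl and 127.9 ± 7.87 CPM in M3-CKO (SD, n = 3; log2 fold change -1.21, SE 0.14, edgeR adjusted p = 0.018). The other 12 of 14 tested genes of SAM synthesis and turnover were not called, and the list's median log2 fold change was -0.15, against 0.02 over all tested genes. Both calls were lost when any library other than M3-CKO replicate 3 was left out (adjusted p 0.12 to 0.20 for Amd1 and 0.075 to 0.12 for Ahcyl2), and their log2 values stayed between 0.73 and 0.92 and between -1.26 and -1.14.

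No other list had a called member. Of the further METTL genes 13 of 20 were tested, with a median of 0.02 and values from -0.44 (Mettl23) to 0.61 (Mettl26), both named for being the ends of the range. The number with an unadjusted p under 0.05 was 0, and so was the number called by DESeq2. Mettl7a2, Mettl7a3, Mettl21c and Mettl24 had too few counts to test, and 3 listed genes had no row. The 26 tRNA methyltransferase genes had a median of 0.22 and the 16 rRNA methyltransferase genes one of 0.21, with 3 and 0 at an unadjusted p under 0.05 and 0 called by DESeq2 in either list.

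The remaining lists bear on mitochondria, thiols and lipids. The 17 factors of mitochondrial ribosome assembly, the process that needs Mettl17, had a median of 0.13 (2 at an unadjusted p under 0.05, 0 called by DESeq2). Of 7 hydrogen sulfide and thiol enzymes, which handle the kind of small thiols that METTL7 proteins methylate, Suox, the sulfite oxidase, had the highest value at 0.87 (SE 0.21, edgeR adjusted p = 0.073), was called by DESeq2 and was chosen after its values were seen. The median of this list was -0.10, with 1 at an unadjusted p under 0.05. The 9 lipid droplet proteins had a median of -0.27 and 0 with an unadjusted p under 0.05. The small-molecule methyltransferases (5 tested, median 0.13) and the other m6A and m6Am writers (3 tested, median 0.03) each had 0 at an unadjusted p under 0.05, and in these 3 lists the DESeq2 count was 0. The list named METTL21-type protein methyltransferases also holds enzymes outside that type, among them Setd3, Ntmt1 and Carnmt1. Its 12 tested genes had a median of 0.25, with 4 at an unadjusted p under 0.05. DESeq2 called 1 of them, Atpsckmt, lower (chosen after its values were seen).

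**Figure D5:**
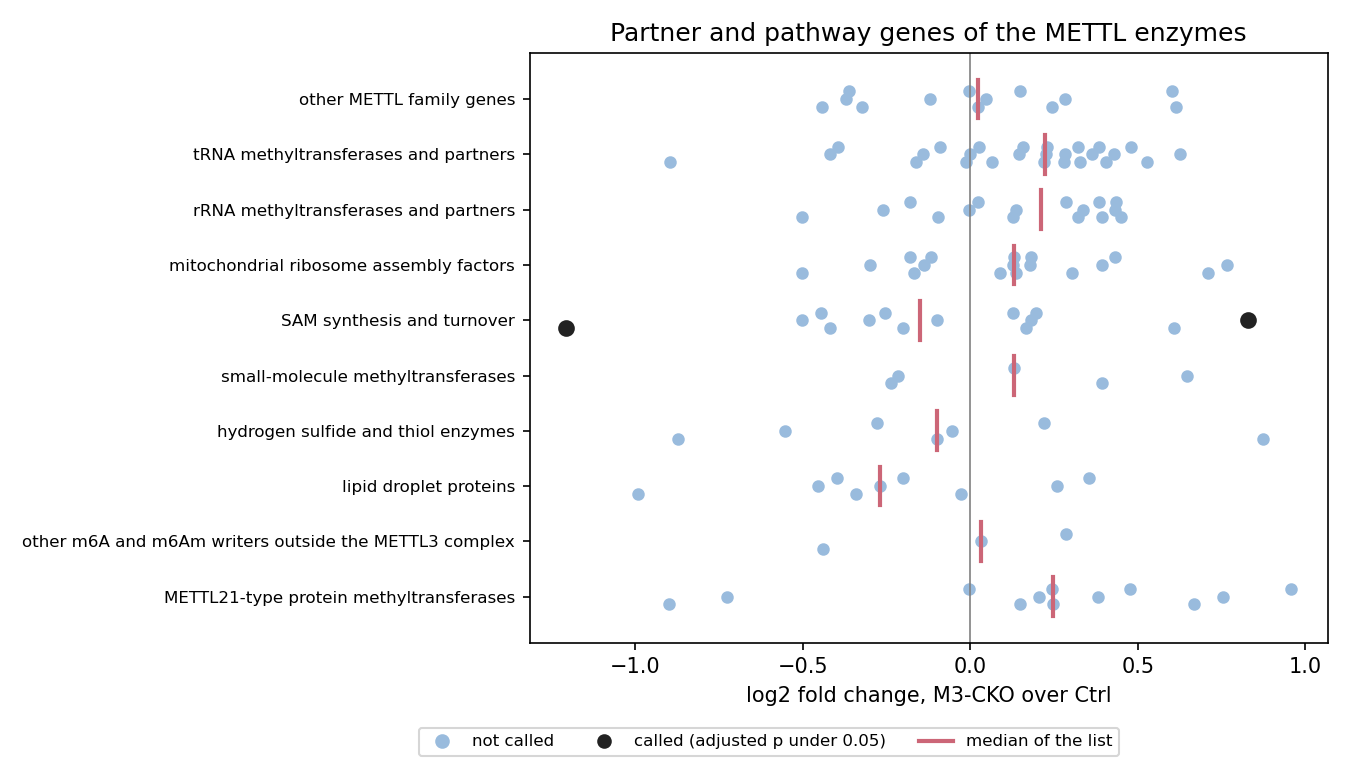
Log2 fold change of M3-CKO over Ctrl (x axis) of each tested gene in 10 lists (rows), with genes called at an adjusted p under 0.05 in black and the median of each list as a red bar. The only called genes are Ahcyl2 at -1.21 and Amd1 at 0.83, and the list medians lie between -0.27 and 0.25.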

How the data were processed

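RNA-seq libraries, 3 Ctrl and 3 M3-CKO, were analysed from a deposited table of raw counts. The submitters' processing notes name HISAT2, featureCounts, Trim Galore and the build mm39. The sources used here do not give versions, annotation, strand setting or the treatment of reads with several matches. The table has no row without a gene name. Differential expression was fitted with edgeR 4.0.16 in R 4.3.3 (filterByExpr, TMM, glmQLFit and glmQLFTest, two-sided, no covariate, Benjamini-Hochberg adjustment over 13528 genes, calls at an adjusted p under 0.05). The steps were also run on simulated counts. That simulation set no library apart, so it does not bear on a library like M3-CKO replicate 3. SE is the size of the log2 fold change over the square root of F. log2 CPM for correlations used a prior count of 2. Alternatives used DESeq2 1.42.0 and limma 3.58.1, other scalings and filters, the replicate number as a block and each library left out. Before TMM scaling, a level of 10 CPM rests on 89.1 to 104.9 counts.

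Nothing in the labels ties a replicate to its own animal or culture, and p-values therefore reflect only how far these libraries differ, which can be technical. The members, the lists and the rule for named genes were chosen with earlier results of these data known. The rule names the members, Mettl3, Mettl14, Wdr4, Trmt112, Mat2a, up to 3 called genes of each list and the 5 genes most like Mettl7b. Mettl14 had a log2 fold change of -0.12 (SE 0.17, edgeR adjusted p = 0.74). List genes were matched by symbol or synonym, 124 of 138. Names, overlaps and neighbours come from RefSeq tables on GRCm38.p6, where all 9 members had a promoter. Protein sequences were not used here. Summed marker levels of other cells were at most 12.4 CPM for mesenchymal (3 of 7 with a row) and 0.317 CPM for endothelial genes (2 of 4). Goblet genes summed to 15.7 to 84.5 CPM in Ctrl and 43.7 to 89.9 CPM in M3-CKO.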

Additional observations from a re-analysis of the deposited data

How the results depend on the processing

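The number of genes called, 393 with all 6 libraries, was 1200 with the DESeq2 test on all 22457 genes (both the test and the low-count filter differ), 740 without a low-count filter and 20 with the replicate number as a block. It ran from 0 (without Ctrl replicate 1 or 3, with 2378 and 1963 genes at an unadjusted p under 0.05) to 3483 (without M3-CKO replicate 3) when single libraries were left out, and was 1 without Ctrl replicate 2 and 14 and 18 without M3-CKO replicates 1 and 2. The number of called genes over the lists, 2, was 4 with DESeq2, 0 with the replicate block and 0 to 18 with single libraries left out. The cause of these shifts was not tested. Same-numbered libraries did not deviate together (r -0.03, 0.02 and -0.10). With deviations taken from means of 3 libraries, this check cannot settle whether the numbers pair the libraries. The count of members called, 1, was 4 without M3-CKO replicate 3 and 0 with the block or without any other single library, and nothing is read from it because this contrast chose the members. Mettl7b, Mettl7a1, Mettl8, Mettl9 and Mettl16 kept their direction in all 13 alternatives, whereas Mettl1, Mettl4, Mettl5 and Mettl17, all near 0, changed sign in 5, 2, 3 and 2 of them. Depth limits Mettl7b in Ctrl, with 4 counts in all. The alignment of member proteins was not run.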
